A study of Homo sapiens with 19 samples.

Results

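The genes described here are 10 human channels, pumps and sensors that move calcium between the cytosol, the endoplasmic reticulum and the outside of the cell. They are the inositol trisphosphate (IP3) receptors ITPR1, ITPR2 and ITPR3, the reticular pumps ATP2A2 and ATP2A3, the store sensors STIM1 and STIM2, the plasma membrane channels ORAI1 and ORAI3, and the plasma membrane pump ATP2B1. They were chosen by their function and with the inhibitor responses of these same libraries already known, so their responses to the inhibitors are given as a description. All 10 were found by Ensembl ID in each of the 3 gene tables, among 60612 IDs for HCT116, 63086 for WiDr and 82890 for WiDr on Oxford Nanopore (ONT) reads. All 10 passed the filter on low counts in the short-read tables, where 19751 and 19340 genes were tested, and 9 passed it on ONT reads, where 15877 were tested. ITPR1 was the exception.

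HCT116 and WiDr are established lines from human colorectal carcinomas. GSK025 (GSK3235025) inhibits PRMT5, the main enzyme of symmetric arginine dimethylation, and GSK715 (GSK3368715) inhibits PRMT1, the main enzyme of asymmetric arginine dimethylation, and related type I enzymes. HCT116 cells received GSK025 at 10 µM, GSK715 at 5 µM or the DMSO vehicle for 96 h, with 3 short-read libraries in each group. WiDr cells received GSK715 at 5 µM or DMSO for 96 h, with 3 short-read libraries in each group and 2 ONT full-length cDNA libraries in each. WiDr cells with GSK025 were not analysed here. The inhibitors were given at different doses, both HCT116 comparisons share the same 3 DMSO libraries, and each line and each read type is 1 table. Line and table therefore cannot be told apart, nor can read type and library set. Nothing states that replicates came from separate cultures, so the tests measure the spread between these libraries, which may be technical.

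In epithelial cells, receptor signals activate phospholipase C, which makes IP3. IP3 opens the ITPR channels, and calcium leaves the endoplasmic reticulum. The ATP2A pumps, known as SERCA, return it. When the store empties, STIM proteins in the reticular membrane open ORAI channels in the plasma membrane, and ATP2B1, known as PMCA1, expels calcium from the cell.

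Short-read libraries held 64.6 to 66.9 M counts in HCT116 and 59.6 to 82.4 M in WiDr, and ONT libraries held 1.45 to 1.67 M. Levels below are counts-per-million values (CPM) on library sizes scaled by the trimmed mean of M values (TMM). Of 8 epithelial markers, 6 reached 1 CPM in at least 1 library of every HCT116 group and 7 or 8 in every WiDr group, with KRT8 the most abundant. Counts of markers below use the same rule. Their summed level was 7546 to 7935 CPM with GSK025, 5717 to 6124 CPM with GSK715 and 4446 to 4547 CPM with DMSO in HCT116, and 22518 to 23025 CPM with GSK715 against 15594 to 15871 CPM with DMSO in WiDr. PTPRC, the pan-leukocyte marker, had no count in any HCT116 library. Of the 4 leukocyte markers, CD14 was the one that reached 1 CPM in WiDr short reads, at a mean of 20.9 CPM with GSK715 against 7.95 CPM with DMSO. Of the 5 muscle markers, 3 or 4 reached 1 CPM in HCT116, and their sum was 45.2 to 49.6 CPM with GSK025 and 30.6 to 32.7 CPM with GSK715, against 23.7 to 25 CPM with DMSO. Single members did not all follow that sum. ACTA2, the most abundant of them in HCT116, had a mean of 38.4 CPM with GSK025, 5.59 CPM with GSK715 and 9.76 CPM with DMSO. The muscle sum in WiDr short reads was 14.4 to 16.5 CPM with GSK715 and 4.45 to 5.43 CPM with DMSO. On ONT reads it was 11.4 to 15 CPM with GSK715 and 15.1 to 19.1 CPM with DMSO, and CD14 had a mean of 13.2 and 14.5 CPM. Of 4 fibroblast markers, COL1A1 was the most abundant. Their sum in HCT116 was 16.9 to 21.5 CPM with GSK025, 22.2 to 27.4 CPM with GSK715 and 17.4 to 19.8 CPM with DMSO. It was 14.2 to 16.5 CPM with GSK715 and 11 to 11.9 CPM with DMSO in WiDr short reads. Its ONT range was 4.71 to 10.2 CPM with GSK715 and 6.77 to 6.86 CPM with DMSO. The sum of 3 endothelial markers reached at most 2.33 CPM in HCT116, 0.734 CPM in WiDr short reads and 3.4 CPM on ONT reads. The part of these shifts in the results below was not tested. In bulk RNA, fewer cells that express a gene and less RNA per cell cannot be told apart.

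RefSeq promoters (build GRCh38.p14) were matched for ITPR1, ITPR3, ATP2A2, STIM1, STIM2, ORAI3 and ATP2B1. The stretches before the start of ATP2B1, which was lower than DMSO in all 3 short-read comparisons, and of ORAI3, which rose in WiDr short reads, are shown because they differ plainly in base content. Capitals mark GGGCGG, the box bound by Sp1-type factors, on either strand; the other motifs searched, CCAAT and TGACGT, would be in capitals too and are in neither stretch.
ATP2B1 (chr12:89708839-89709088, minus strand): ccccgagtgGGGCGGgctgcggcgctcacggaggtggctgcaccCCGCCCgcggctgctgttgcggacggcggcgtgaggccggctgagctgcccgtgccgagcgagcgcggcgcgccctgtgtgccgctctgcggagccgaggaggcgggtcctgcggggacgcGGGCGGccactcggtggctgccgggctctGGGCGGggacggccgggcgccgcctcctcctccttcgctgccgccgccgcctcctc
ORAI3 (chr16:30948818-30949065, plus strand): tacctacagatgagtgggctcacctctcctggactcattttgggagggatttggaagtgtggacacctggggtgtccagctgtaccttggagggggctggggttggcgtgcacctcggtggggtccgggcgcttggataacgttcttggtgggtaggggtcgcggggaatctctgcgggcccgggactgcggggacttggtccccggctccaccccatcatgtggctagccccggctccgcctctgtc
The ATP2B1 stretch holds 4 GGGCGG boxes and the ORAI3 stretch holds 0, and a second start of ATP2B1 has 2. The stretch of STIM1, which rose with GSK025 in HCT116, holds 8, and its other starts have 8, 2 and, in a shorter stretch, 0. That of ITPR1, which passed in no comparison with DMSO, holds 0. Shorter stretches of ATP2A2 and STIM2 hold 2 and 1, and a second start of ATP2A2 has 0. A link between boxes and responses was not tested. Over windows of 300 bases, 45% of 35116 promoters in the table hold GGGCGG, 34.6% hold CCAAT and 7.98% hold TGACGT, on either strand. The endoplasmic reticulum stress element, CCAAT and CCACG separated by 9 bases, was searched because ATP2A2 is a known target of the unfolded protein response. It is in 0.0769% of the promoters and was found in none of the matched genes. ATP2A2 has a near form, with CCAAT and, after 9 bases, CCACA, both in capitals.
ATP2A2 (chr12:110281184-110281202, plus strand): CCAATgagcggcgtCCACA
The shorter pattern of CCAAT, 9 bases and CCAC, chosen after that sequence was seen, is in 0.316% of the promoters. These matches describe letters only.

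With GSK025 in HCT116, ITPR2, STIM2 and ATP2B1 fell while ATP2A2, ATP2A3, STIM1 and ORAI1 rose. With GSK715 in HCT116, the same 3 genes fell and ITPR3 rose. With GSK715 in WiDr short reads, ATP2A3 and ORAI3 rose most, ITPR3 rose a little, and ATP2B1, ATP2A2, ITPR2 and STIM2 fell. No gene of the 10 passed on ONT reads. These calls come from edgeR's quasi-likelihood test with Benjamini-Hochberg adjustment over all genes tested and a threshold of 0.05, and serve here to sort the genes, since the same comparisons chose them.

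The count with GSK025 was 4 higher and 3 lower of 10, where 22.0% of all genes tested were called higher and 22.1% lower. With GSK715 in HCT116 it was 1 higher and 3 lower of 10, with 22.1% of all genes higher and 24.2% lower. With GSK715 in WiDr short reads it was 3 higher and 4 lower of 10, with 33.6% of all genes higher and 32.2% lower. On ONT reads it was 0 of 9, with 4.29% of all genes higher and 4.51% lower. Of these 9, ORAI3 and ORAI1 came nearest to the threshold, with adjusted p of 0.0534 and 0.096 in edgeR's quasi-likelihood test. DESeq2 also called 0 on ONT reads. The median log2 fold change of the genes was 0.11 with GSK025 in HCT116, against -0.018 over all genes. It was -0.031 against -0.052 with GSK715 in HCT116, -0.15 against 0.054 in WiDr short reads, and -0.14 against 0.0032 on ONT reads.

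With library totals in place of TMM, the median of all genes moved by -0.16 for GSK715 in HCT116 and by 0.12 in WiDr short reads, and by -0.067 for GSK025 and -0.055 on ONT reads. The calls over all genes then split into 2994 higher and 6343 lower for GSK715 in HCT116, against 4372 and 4785 with TMM. For GSK025 they split into 3650 higher and 4900 lower, against 4338 and 4370. The split in WiDr short reads was 7495 higher and 5300 lower, against 6502 and 6225. On ONT reads they split into 592 higher and 991 lower, against 681 and 716. For the 10 genes, library totals gave 3 higher and 3 lower with GSK025, 0 higher and 5 lower with GSK715 in HCT116, and 4 higher and 3 lower in WiDr short reads. With GSK715 in HCT116 the values of ITPR1, ATP2A3 and ORAI1 then turned to -0.016, -0.018 and -0.026, and with GSK025 that of ITPR3 turned to -0.0053, none of which passed with either scaling.

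**Figure D1:**
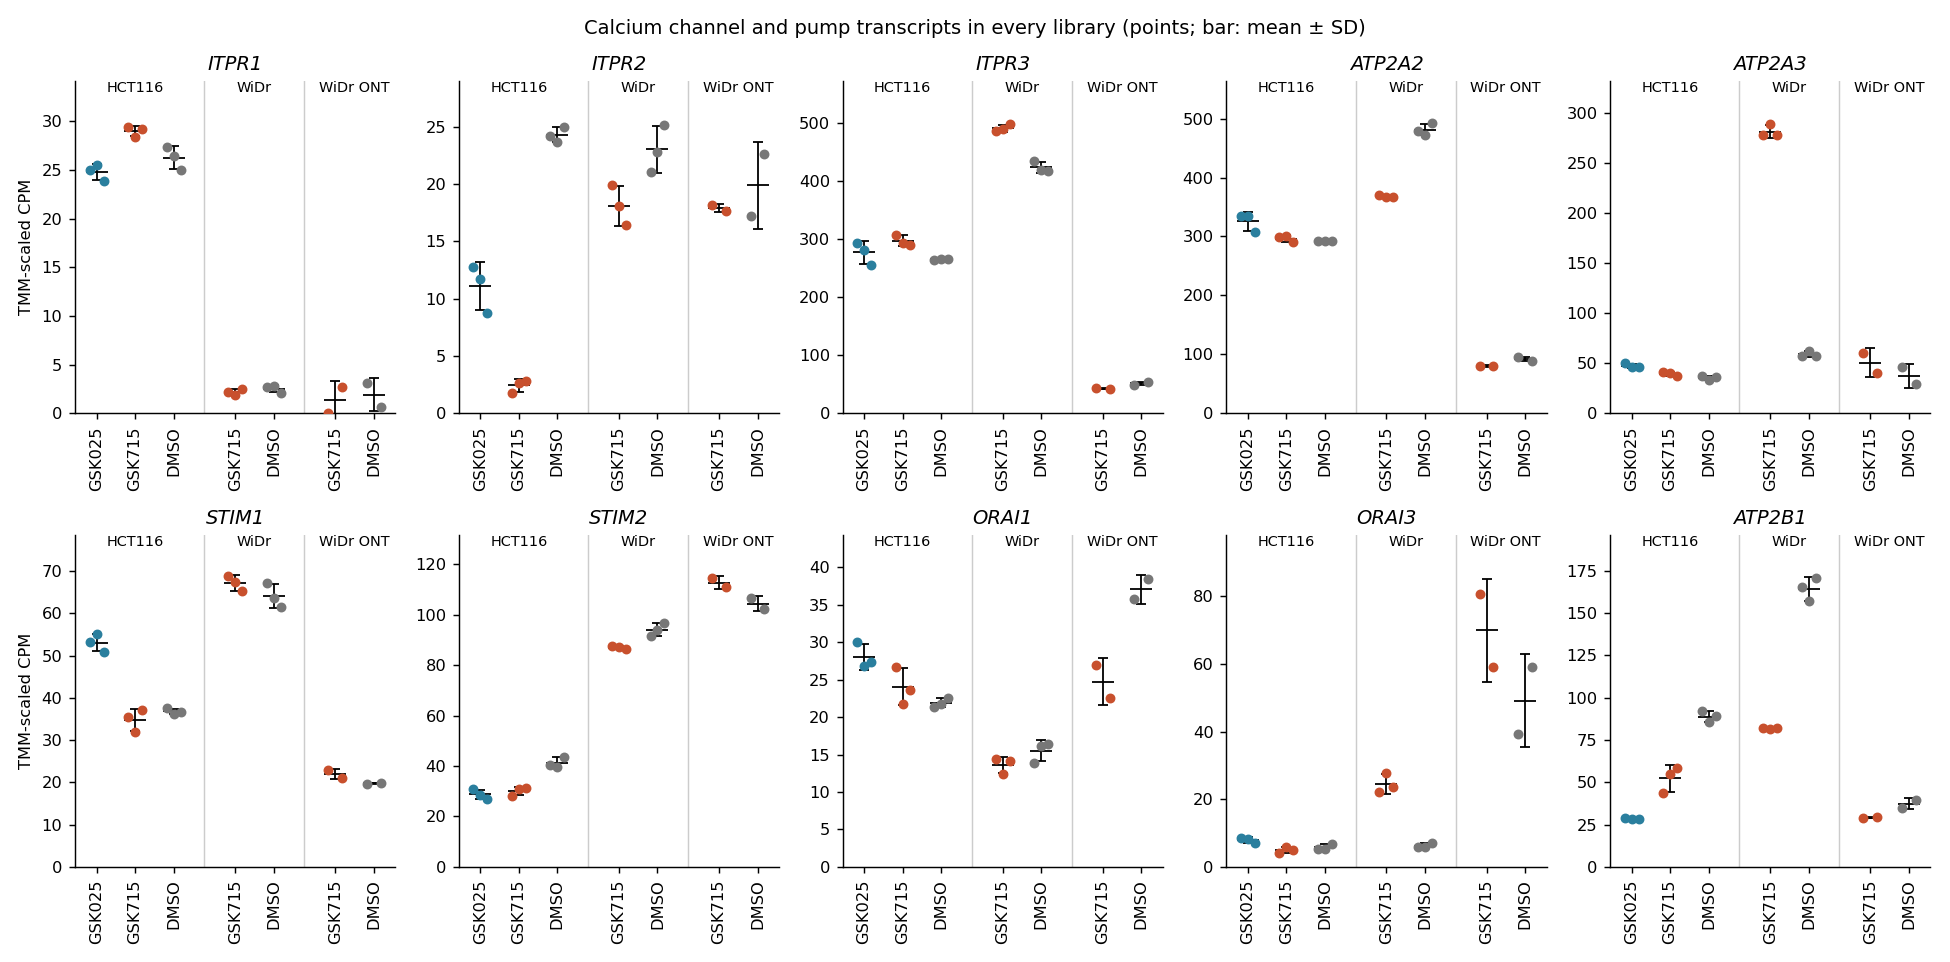
TMM-scaled CPM (vertical axis from 0, own scale for each gene) in every library of the 7 groups, with the mean and SD; levels may be compared within a table, not between HCT116, WiDr and WiDr ONT. ITPR2 lies at 1.79 to 2.86 CPM with GSK715 in HCT116, below its other HCT116 groups. ATP2A3 lies at 278.0 to 289.0 CPM with GSK715 in WiDr short reads, above its DMSO libraries there.

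ITPR2 had the widest range of response. The gene (ENSG00000123104, chromosome 12, 26336515 to 26833198, minus strand, GRCh38, GENCODE 29) encodes the receptor subtype with the highest affinity for IP3. In HCT116 its level was 12.8, 11.7 and 8.77 CPM with GSK025 and 1.79, 2.68 and 2.86 CPM with GSK715, against 24.2, 23.7 and 25 CPM with DMSO. The 3 groups did not overlap, and the lowest GSK715 library still held 111 counts. The log2 fold change was -1.13 (SE 0.17) with GSK025, a level 2.18-fold lower, and -3.31 (SE 0.18) with GSK715, a level 9.93-fold lower. ITPR2 in WiDr short reads was at 19.9, 18.1 and 16.4 CPM with GSK715 and at 21.1, 22.8 and 25.2 CPM with DMSO. The ranges lay next to each other without overlap, and the log2 fold change was -0.35 (SE 0.093), or -0.22 with library totals. Its ONT level was 18.2 and 17.7 CPM with GSK715, within the span of 17.2 and 22.6 CPM with DMSO. In order of mean level, ITPR2 stood at 2.44 CPM with GSK715, 11.1 CPM with GSK025 and 24.3 CPM with DMSO in HCT116. The order in WiDr short reads was 18.1 CPM with GSK715 and 23.0 CPM with DMSO. Neighbours within each line were separate. The tables of the lines were scaled separately, so levels are not compared between the lines.

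ITPR3, the subtype typical of epithelia, was the most abundant IP3 receptor per exonic kilobase in each short-read group. The gene lies on chromosome 6, 33620365 to 33696574, plus strand (ENSG00000096433). In HCT116 it was at 294.2, 282.2 and 256.1 CPM with GSK025 and at 308.0, 293.0 and 290.6 CPM with GSK715, against 265.1, 266.0 and 266.6 CPM with DMSO. All 3 GSK715 libraries lay above DMSO, while the GSK025 libraries lay on both sides of it. The log2 fold changes were 0.062 (SE 0.048, not passed) with GSK025 and 0.16 (SE 0.048) with GSK715. The second of these was 0.00042 with library totals and 0.14 without GSK715 replicate 1, and missed the threshold in both, while the first passed without GSK025 replicate 3, at 0.12. WiDr short reads had ITPR3 at 486.2, 491.0 and 498.0 CPM with GSK715 and at 434.8, 419.2 and 418.2 CPM with DMSO, apart in all libraries, with a log2 fold change of 0.21 (SE 0.026), or 0.34 with library totals. ONT libraries had it at 43.1 and 42.2 CPM with GSK715 and at 49.2 and 53.5 CPM with DMSO, lower in both but not passed (-0.26, SE 0.18). Of its exonic bases, 10.4% overlap UQCC2 on the opposite strand, so its counts are uncertain where the counting ignored strand. UQCC2 had 30.4 CPM with GSK025, 43.1 CPM with GSK715 and 26.1 CPM with DMSO in HCT116, and 42.5 CPM with GSK715 against 21.4 CPM with DMSO in WiDr short reads.

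ITPR1 (ENSG00000150995, chromosome 3, 4493345 to 4847840, plus strand), the subtype best known from neurons, passed in no comparison with DMSO. In HCT116 it was at 25, 25.5 and 23.9 CPM with GSK025 and at 29.4, 28.4 and 29.2 CPM with GSK715, against 27.4, 26.4 and 25 CPM with DMSO, with log2 fold changes of -0.081 (SE 0.066) and 0.14 (SE 0.066). GSK715 lay above DMSO in all libraries, and GSK025 overlapped it. Its level in WiDr short reads was 2.23, 1.90 and 2.49 CPM with GSK715 and 2.65, 2.85 and 2.11 CPM with DMSO, overlapping. On ONT reads it had 0 and 4 counts with GSK715 and 5 and 1 counts with DMSO and was not tested; a count of 0 allows up to 2.02 CPM in that library, counting error only.

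Per length, the make-up of the receptor family shifted with ITPR2. ITPR2 made up 3.19, 3.04 and 2.51% of the summed CPM per exonic kilobase of the 3 receptors with GSK025 and 0.434, 0.684 and 0.734% with GSK715, against 6.41, 6.27 and 6.6% with DMSO in HCT116. The share of ITPR3 was 94.5% ± 0.249 with GSK025 and 96.5% ± 0.222 with GSK715, against 90.8% ± 0.128 with DMSO (SD, n = 3 each). In WiDr the ITPR2 share was 2.77% ± 0.294 with GSK715 and 4.03% ± 0.419 with DMSO (SD, n = 3 each), and ITPR1 was at 0.132% and 0.174%. The share of ITPR1 depends on the length used, since its exons span 32.5 kb together but its longest transcript has 10.2 kb. With longest transcripts it was 8.58% with GSK715 and 8.13% with DMSO in HCT116, against 2.87% and 2.73% by exons. Within each line the order of ITPR2 shares across groups was the same by either length.

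**Figure D2:**
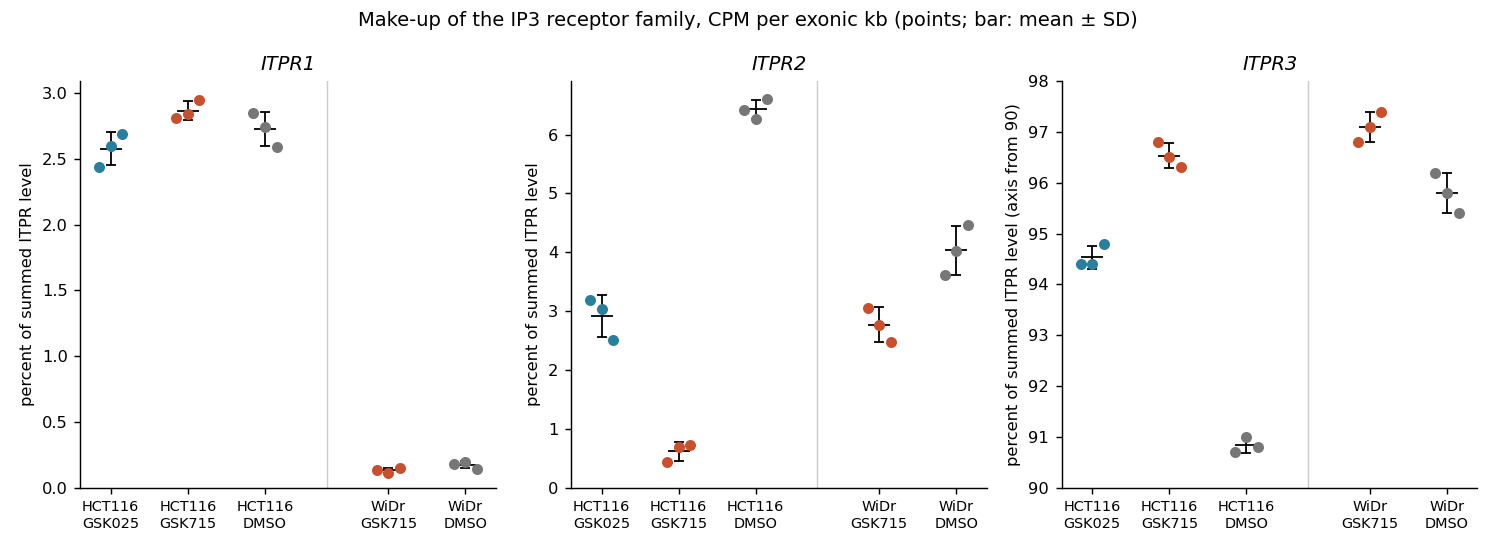
Share of each IP3 receptor gene in the summed level of the 3 genes (percent of CPM per exonic kb), by library, with mean and SD (n = 3 each); the ITPR3 axis starts at 90. ITPR2 falls to 0.434 to 0.734% with GSK715 in HCT116, against 6.27 to 6.6% with DMSO.

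Of the reticular pumps, ATP2A2 is the housekeeping form and ATP2A3 is typical of blood and epithelial cells, with a lower affinity for calcium. ATP2A3 (ENSG00000074370, chromosome 17, 3923870 to 3964464, minus strand) had 278.0, 289.0 and 278.3 CPM with GSK715 in WiDr short reads, against 57.5, 62.3 and 56.9 CPM with DMSO. The libraries stood far apart, with a log2 fold change of 2.26 (SE 0.041), a level 4.79-fold higher. In HCT116 it was at 50.1, 46.1 and 45.8 CPM with GSK025 and at 40.8, 40.4 and 37.1 CPM with GSK715, against 37.5, 33.5 and 36.2 CPM with DMSO. GSK025 lay above DMSO in all libraries (log2 fold change 0.41, SE 0.066), and GSK715 overlapped it (0.14, SE 0.066, not passed). Its ONT level was 60.6 and 40.2 CPM with GSK715 and 46.1 and 28.8 CPM with DMSO, overlapping, with a log2 fold change of 0.41 (SE 0.21, not passed) that was 0.68 and passed without GSK715 replicate 2.

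ATP2A2 (ENSG00000174437, chromosome 12, 110280756 to 110351093, plus strand), whose promoter holds the CCAAT stretch above, went the other way in WiDr. Its level was 370.3, 367.7 and 366.7 CPM with GSK715 and 478.9, 472.6 and 491.8 CPM with DMSO in WiDr short reads, apart in all libraries, with a log2 fold change of -0.39 (SE 0.026). ONT libraries had it at 79.5 and 81.0 CPM with GSK715 and at 94.7 and 89.1 CPM with DMSO, lower in both libraries (-0.20, SE 0.14, not passed). In HCT116 it was at 334.7, 334.6 and 307.0 CPM with GSK025 and at 298.7, 300.3 and 289.9 CPM with GSK715, against 293.1, 292.0 and 292.7 CPM with DMSO. The log2 fold change of 0.15 (SE 0.040) with GSK025 was 0.087 with library totals and then missed the threshold. That of 0.018 (SE 0.040, not passed) with GSK715 turned to -0.14 with library totals and then passed. Per exonic kilobase of WiDr short reads, ATP2A3 stood above ATP2A2 with GSK715 (40.9 ± 0.905 against 26.8 ± 0.135 CPM per kb) and below it with DMSO (8.54 ± 0.432 against 35.0 ± 0.711 CPM per kb; SD, n = 3 each). By longest transcripts, ATP2A2 stayed the higher at 64.6 against 58.4 CPM per kb with GSK715, so the order with GSK715 depends on the length used.

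STIM1 responds to deep depletion of the store, and STIM2 is the more sensitive sensor that holds the resting level. STIM1 (ENSG00000167323, chromosome 11, 3854527 to 4093210, plus strand) was at 53.2, 55 and 50.9 CPM with GSK025 and at 35.4, 31.9 and 37.1 CPM with GSK715, against 37.5, 36.2 and 36.7 CPM with DMSO in HCT116. GSK025 stood above both other groups in all libraries, with a log2 fold change of 0.53 (SE 0.064), and that with GSK715 was -0.080 (SE 0.064, not passed), or -0.24 and passed with library totals. STIM1 in WiDr short reads was at 68.8, 67.5 and 65.2 CPM with GSK715 and at 67.1, 63.7 and 61.6 CPM with DMSO, overlapping (0.066, SE 0.041, not passed), though with library totals the value of 0.19 passed.

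STIM2 (ENSG00000109689, chromosome 4, 26857678 to 27025381, plus strand) was at 30.7, 28.6 and 27.1 CPM with GSK025 and at 28.3, 31.0 and 31.1 CPM with GSK715, against 40.4, 39.6 and 43.7 CPM with DMSO in HCT116. Both inhibitor groups lay below DMSO in all libraries and overlapped each other, with log2 fold changes of -0.52 (SE 0.070) and -0.45 (SE 0.070). In WiDr short reads it was at 87.4, 87.0 and 86.4 CPM with GSK715 and at 91.4, 93.8 and 96.7 CPM with DMSO, apart, with a log2 fold change of -0.11 (SE 0.032) that turned to 0.012 and missed the threshold with library totals. On ONT reads STIM2 was at 114.5 and 110.9 CPM with GSK715 and 106.4 and 102.2 CPM with DMSO, and STIM1 was at 22.9 and 21.1 CPM with GSK715 and 19.7 and 19.9 CPM with DMSO. Neither passed there.

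ORAI1 forms the pore of the store-operated channel, and ORAI3 can join it in mixed channels. ORAI3 (ENSG00000175938, chromosome 16, 30949066 to 30956461, plus strand) had 22.2, 27.7 and 23.6 CPM with GSK715 in WiDr short reads, against 6, 5.8 and 7.04 CPM with DMSO. The groups stood apart, with a log2 fold change of 1.96 (SE 0.11), a level 3.90-fold higher. In HCT116 it was at 8.51, 8.31 and 6.95 CPM with GSK025 and at 4.04, 5.89 and 5.03 CPM with GSK715, against 5.27, 5.29 and 6.93 CPM with DMSO. The log2 fold changes were 0.44 (SE 0.18) and -0.23 (SE 0.18), and neither passed. The first passed in DESeq2 (0.45), with GSK025 and DMSO fitted alone (0.44), without DMSO replicate 3 (0.59) and without GSK715 replicate 1 (0.44). On ONT reads ORAI3 was at 80.8 and 59.2 CPM with GSK715 and at 39.4 and 59.0 CPM with DMSO, with the nearest libraries of the groups almost level. There its log2 fold change was 0.52 (SE 0.18, not passed), and it passed at 0.83 without DMSO replicate 2 and at 0.73 without GSK715 replicate 2. Of the exonic bases of ORAI3, 52.9% overlap the transcript ENSG00000261487 on the same strand, so its counts are uncertain. That ID had a mean of 0.466 CPM with GSK715 and 0.0729 CPM with DMSO in WiDr short reads, and 8.13 CPM with GSK715 and 13.4 CPM with DMSO on ONT reads.

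ORAI1 (ENSG00000276045, chromosome 12, 121626550 to 121642677, plus strand) was at 30.0, 26.8 and 27.3 CPM with GSK025 and at 26.7, 21.8 and 23.6 CPM with GSK715, against 21.4, 21.7 and 22.6 CPM with DMSO in HCT116. GSK025 lay above DMSO in all libraries (log2 fold change 0.36, SE 0.084), and GSK715 overlapped DMSO (0.13, SE 0.084, not passed). In WiDr short reads it was at 14.4, 12.4 and 14.1 CPM with GSK715 and at 13.9, 16.2 and 16.4 CPM with DMSO, overlapping (-0.19, SE 0.096, not passed), though without DMSO replicate 1 the value of -0.27 passed. On ONT reads it was at 26.9 and 22.5 CPM with GSK715 and at 35.7 and 38.4 CPM with DMSO, apart in all 4 libraries but not passed (-0.58, SE 0.22).

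ATP2B1 (ENSG00000070961, chromosome 12, 89588049 to 89709300, minus strand) had values below DMSO in every comparison. In HCT116 it was at 28.8, 28.2 and 28.1 CPM with GSK025 and at 43.7, 54.7 and 58.6 CPM with GSK715, against 91.9, 85.5 and 89.4 CPM with DMSO. The 3 groups did not overlap, and the log2 fold changes were -1.65 (SE 0.088), a level 3.14-fold lower, and -0.76 (SE 0.085), a level 1.70-fold lower. In WiDr its short-read level was 81.9, 81.5 and 81.9 CPM with GSK715 and 165.4, 157.0 and 170.8 CPM with DMSO, apart, with a log2 fold change of -1.01 (SE 0.036), a level 2.01-fold lower. On ONT reads it was at 29 and 29.3 CPM with GSK715 and at 35.1 and 39.8 CPM with DMSO, lower in both libraries but not passed (-0.36, SE 0.21).

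**Figure D3:**
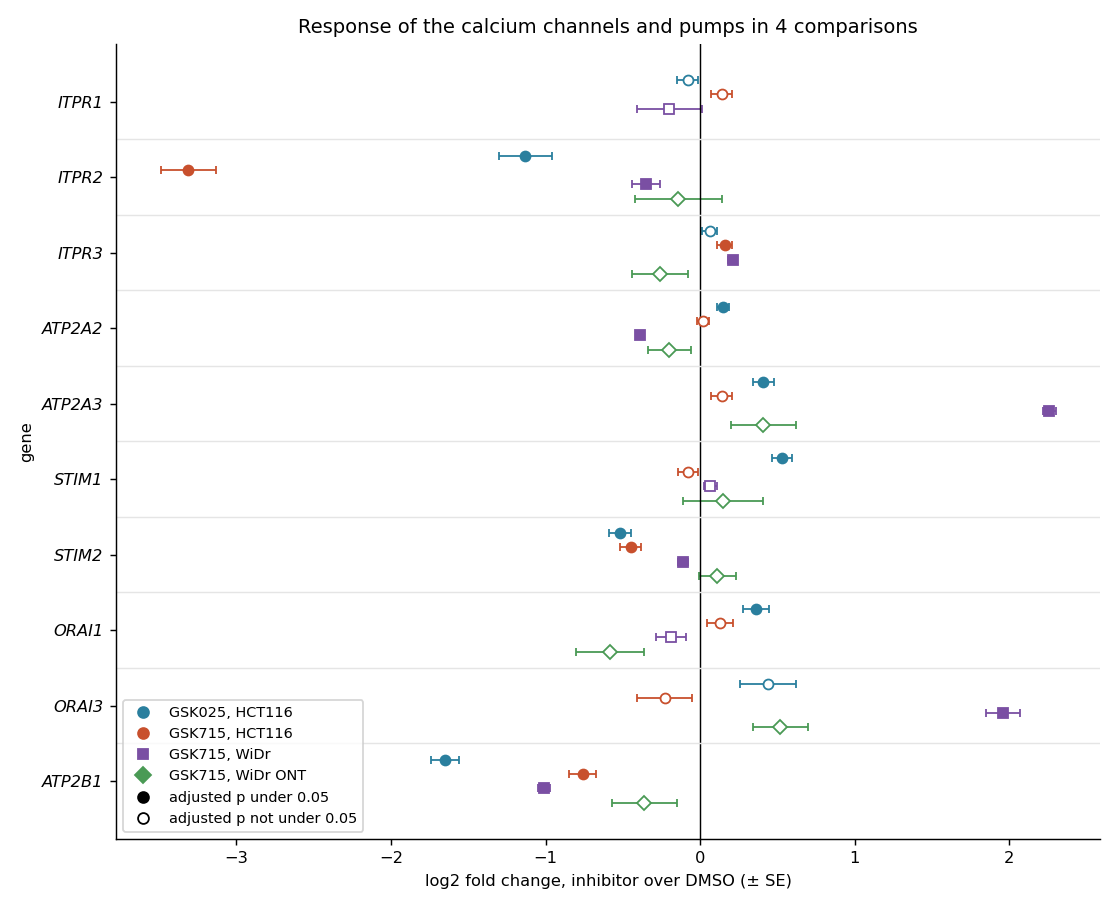
Log2 fold change of each gene over DMSO (horizontal axis, ± SE) in the 4 comparisons; filled symbols have an adjusted p under 0.05 and open ones do not. ITPR2 is farthest left with GSK715 in HCT116 at -3.31, ATP2A3 farthest right with GSK715 in WiDr short reads at 2.26, and ATP2B1 is left of 0 in all 4.

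The inhibitors were then set against each other in HCT116, a comparison of the same libraries in which 21.8% of all genes tested were called higher with GSK715 and 22.5% lower. Of the 10 genes, 2 were higher with GSK715 at 5 µM than with GSK025 at 10 µM and 6 were lower, and 8 genes thus differed between the inhibitors; the doses differ, and edgeR's quasi-likelihood test adjusted over all genes gave the p-values. ATP2B1 had the higher level with GSK715 (log2 difference 0.88, SE 0.087, adjusted p = 3.1e-06), as did ITPR1 (0.22, SE 0.066, adjusted p = 0.0138). ITPR2 had a level 4.55-fold lower with GSK715 than with GSK025 (-2.19, SE 0.18, adjusted p = 5.9e-07). The others that were lower were ORAI3 at -0.67 (SE 0.18, adjusted p = 0.00853), STIM1 at -0.61 (SE 0.064, adjusted p = 6.1e-06), ATP2A3 at -0.26 (SE 0.066, adjusted p = 0.00537) and ATP2A2 at -0.14 (SE 0.040, adjusted p = 0.0141). STIM2 did not pass, with an interval of 2 SE on each side from -0.08 to 0.21 and a value of -0.027 with library totals, and neither did ITPR3, from 0.00 to 0.20. ORAI1, at -0.22 and adjusted p = 0.0465, missed the threshold in 8 of 9 fits that left out a library (adjusted p 0.0524 to 0.199), in DESeq2, with RLE size factors, without the count filter and with the 2 groups alone. ATP2A2 missed it without GSK025 replicate 1, GSK025 replicate 2 or GSK715 replicate 3 (adjusted p 0.0562 to 0.0731), ITPR3 passed without GSK025 replicate 1 (adjusted p = 0.0235) and in DESeq2, and ITPR1 was at 0.13 and missed it with library totals. With library totals 1 of the 10 genes was higher and 6 were lower, and the calls over all genes split into 3474 higher and 5406 lower, against 4302 and 4444 with TMM. The median of the 10 genes was -0.18, against -0.00097 over all genes.

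The response to GSK715 was compared between the lines as the difference of the log2 fold changes, WiDr minus HCT116, over IDs shared by both tables. Of the 10 genes 4 were higher and 3 lower, where 23.2% of 21791 genes were called higher and 23.5% lower. ITPR2 differed most, by 2.89 (SE 0.20, adjusted p = 7.2e-08): its fall was 1.27-fold in WiDr and 9.93-fold in HCT116. ORAI3 differed by 2.12 (SE 0.23, adjusted p = 5.7e-06) and ATP2A3 by 2.05 (SE 0.073, adjusted p = 1.1e-10); both rose in WiDr and did not pass in HCT116. STIM2 differed by 0.27 (SE 0.070, adjusted p = 0.00594) and ATP2A2 by -0.47 (SE 0.036, adjusted p = 1.5e-07). All p-values are from edgeR's quasi-likelihood interaction test. They come from the libraries in which the genes were chosen.

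Smaller differences between the lines were less firm. ORAI1 differed by -0.39 (edgeR quasi-likelihood adjusted p = 0.0329) and ATP2B1 by -0.31 (adjusted p = 0.0401). ATP2B1 missed the threshold in 11 of 12 fits that left out a library, with values down to -0.18 without HCT116 GSK715 replicate 3, and ORAI1 missed it in 9 of 12. Both missed it with RLE size factors. With library totals the median of all genes moved by 0.35, ATP2B1 turned to 0.040, ORAI1 went to -0.033, ATP2A2 to -0.12 and STIM2 to 0.62, and ITPR3, at -0.017 with TMM and not passed, turned to 0.34 and passed. ITPR3 also turned to between 0.0068 and 0.042, without passing, in each of the 12 fits that left out a library. STIM1, at 0.076 with an interval from -0.08 to 0.23, did not pass with TMM and passed with library totals at 0.43. ITPR1 (-0.41, adjusted p = 0.0637) passed without WiDr DMSO replicate 3 (-0.50, adjusted p = 0.0187) or WiDr GSK715 replicate 3 (-0.46, adjusted p = 0.0476). With library totals 6 of the 10 genes were higher and 1 was lower, and the calls over all genes split into 7321 higher and 3203 lower, against 5058 and 5129 with TMM. The median of the 10 genes was 0.029, against 0.12 over all genes.

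In WiDr the response to GSK715 could also be compared between ONT and short reads, which come from separate libraries. Of 10 genes tested, 1 had a higher log2 fold change on ONT reads and 2 a lower one, where 11.2% of 24055 genes were called higher and 8.69% lower. ATP2A3 differed by -1.79 (SE 0.24, adjusted p = 0.00015) and ORAI3 by -1.39 (SE 0.27, adjusted p = 0.00244), ONT minus short reads, in edgeR's quasi-likelihood interaction test. Both genes had a smaller rise on ONT reads that did not pass there. ATP2B1 differed by 0.70 (SE 0.15, adjusted p = 0.00652), a smaller fall on ONT reads, but missed the threshold with library totals (0.48, adjusted p = 0.079), in limma with weights per table (0.71, adjusted p = 0.0701) and without ONT DMSO replicate 1, ONT GSK715 replicate 1 or ONT GSK715 replicate 2 (adjusted p 0.0602 to 0.0785). ITPR3 (-0.43, adjusted p = 0.0601) passed with library totals at -0.64 and without WiDr DMSO replicate 1 or WiDr DMSO replicate 2 of the short reads. For ITPR2 (-0.29 to 0.80), STIM1 (-0.20 to 0.47) and ORAI1 (-0.78 to 0.09) the intervals of 2 SE on each side held 0, and those for ATP2A2 (0.06 to 0.41) and STIM2 (0.09 to 0.46) did not, though no gene of these 5 passed. The test also holds p no lower than counting error alone would give, which the SE leaves out, so such intervals can be too narrow at ONT depth. The interval of ITPR1 ran from -2.36 to 1.84. With library totals 0 of the 10 genes were higher and 3 were lower, STIM1, at 0.14 with TMM, turned to -0.077 without passing, the median of all genes moved by -0.21 and the calls split into 1802 higher and 3076 lower, against 2697 and 2090 with TMM. The median of the 10 genes was -0.062, against -0.042 over all genes.

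**Figure D4:**
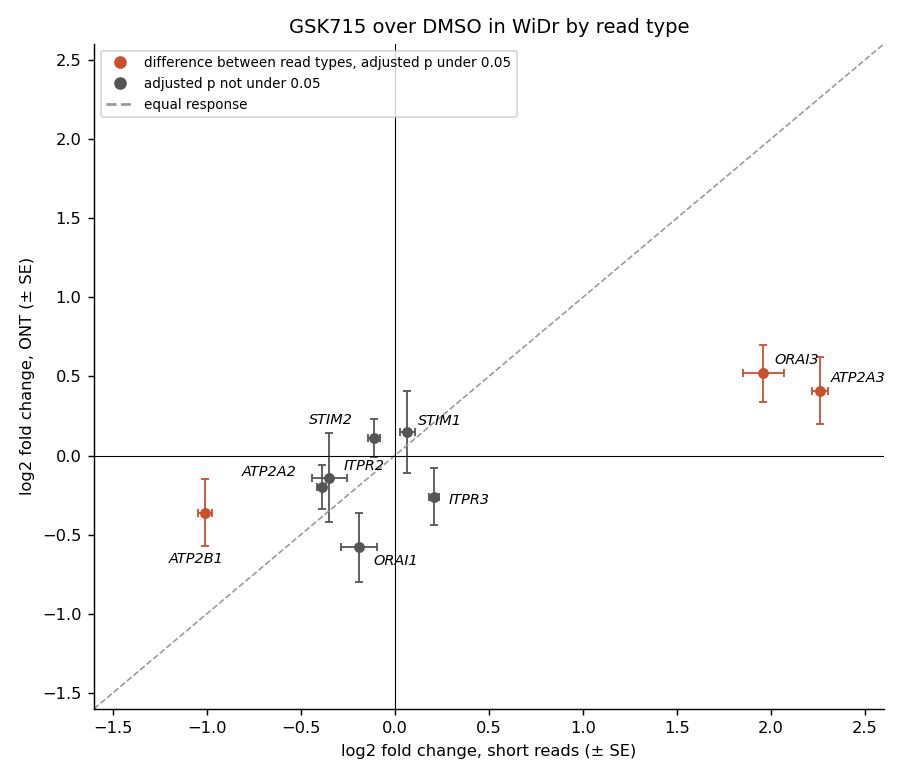
Log2 fold change of GSK715 over DMSO in WiDr on ONT reads (vertical axis) against short reads (horizontal axis), ± SE, for the 9 genes tested on ONT reads; the dashed line marks equal responses. ATP2A3 and ORAI3 lie far below the line, with 2.26 and 1.96 on short reads and 0.41 and 0.52 on ONT reads.

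ONT levels were not divided by length and were not compared between genes. The median ONT read had 765 and 811 bases with GSK715 and 815 and 844 bases with DMSO, while the longest transcript has 9.87 kb for ITPR3 and 2.21 kb for ORAI3. Each ONT value rests on few counts: 62 to 80 for ITPR3, 64 to 120 for ORAI3, 42 to 90 for ATP2A3 and 43 to 58 for ATP2B1.

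Because several of these genes are long, their responses were set beside those of all genes of like exonic length. Across genes of at least 5 CPM, which are not independent replicates, Spearman's rho between log2 fold change and exonic length was -0.30 with GSK025 and -0.29 with GSK715 in HCT116, -0.063 in WiDr short reads and -0.0091 on ONT reads. Genes with exons over 8 kb had a median log2 fold change of -0.25 with each inhibitor in HCT116. That bin holds 5 of the 10 genes, ITPR1, ITPR2, ITPR3, ATP2A2 and ATP2B1, and 43.5% of its 3191 genes were called lower with GSK025 and 44.6% with GSK715. Its lower quartile was -0.79 with GSK025 and -0.77 with GSK715. ITPR2 lay below both quartiles and ATP2B1 below the first, with -0.76 close to the second. The bin depends on the length used, since the longest transcripts of ATP2B1 and ATP2A2 have 7.03 and 5.7 kb. Bins by longest transcript were not made. ITPR1, ITPR3 and ATP2A2 lay above the median of their bin in both comparisons. STIM1, STIM2 and ATP2A3 share the bin of 5 to 8 kb, whose medians were -0.05 and -0.07. Among 2979 genes with exons over 8 kb in WiDr short reads, 45.6% were called lower and 31.5% higher, against 17.4% and 29.4% under 2 kb. Quartiles of that longest bin were -0.63 and 0.41. ATP2B1, at -1.01, lay below the first, and ITPR1, ITPR2, ITPR3 and ATP2A2 lay between them. The part of length in these responses was not tested further.

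**Figure D5:**
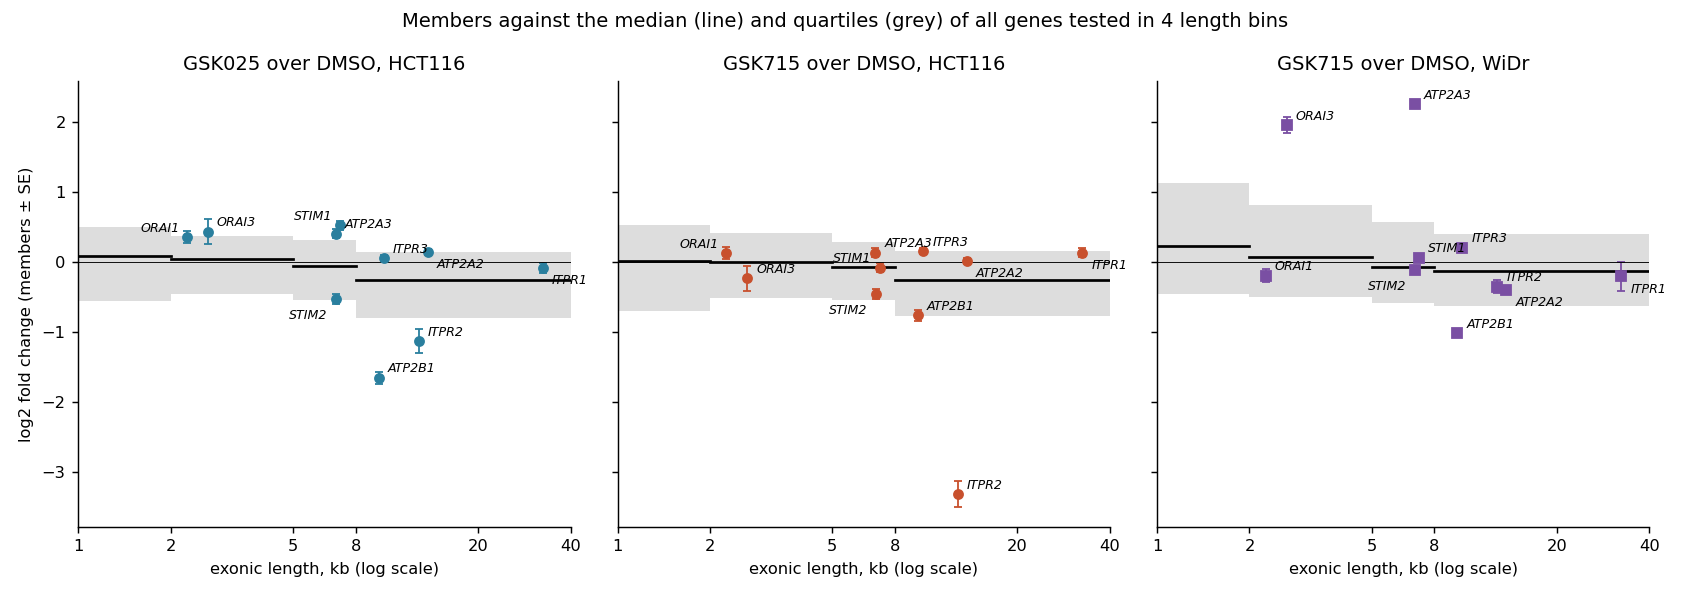
Log2 fold change over DMSO (vertical axis) of the 10 genes (points, ± SE) by exonic length in kb (horizontal log axis), with the median (black line) and quartiles (grey) of all genes tested in bins under 2, 2 to 5, 5 to 8 and over 8 kb. The median of the longest bin is -0.25 in both HCT116 panels and -0.13 in WiDr.

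The genes whose 4 log2 fold changes lay nearest to those of ITPR2 were sought among 8980 genes of at least 5 CPM in each table, by the root mean square of the differences. They were ATRX, a chromatin remodeller, at 0.30, KITLG, the ligand of the receptor KIT, at 0.37, PRKACB, a catalytic subunit of protein kinase A, at 0.40, the monocarboxylate transporter SLC16A7 at 0.59 and TASOR, a subunit of the HUSH silencing complex, at 0.60. ATRX had log2 fold changes of -1.40 with GSK025 and -2.82 with GSK715 in HCT116, -0.19 in WiDr short reads and 0.02 on ONT reads, beside -1.13, -3.31, -0.35 and -0.14 for ITPR2.

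The rest of the calcium machinery was described through 8 lists of 96 other genes. Of them 26 rose and 22 fell of 87 tested with GSK025 in HCT116, where 22.0% and 22.1% of all genes were called. With GSK715 in HCT116 34 rose and 22 fell of 87, against 22.1% and 24.2% of all genes, and in WiDr short reads 32 rose and 44 fell of 89, against 33.6% and 32.2%. On ONT reads 1 rose and 4 fell of 72, against 4.29% and 4.51%. Between read types 18 list genes had a higher log2 fold change on ONT reads and 15 a lower one, of 90, against 11.2% and 8.69% of all genes. The shares of all genes stand for the lists below too. Values in the next paragraphs are log2 fold changes over DMSO on short reads unless ONT is named, and the genes named are among the 2 with the smallest adjusted p in a direction of their list. Differences between read types are ONT minus short reads, with adjusted p from edgeR's quasi-likelihood interaction test.

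Among other release and leak channels, 2 rose and 1 fell of 5 with GSK025, 4 rose and 1 fell of 5 with GSK715 in HCT116, and 2 rose and 4 fell of 7 in WiDr. GRINA, a reticular membrane protein, rose on short reads by 0.56 with GSK025 and by 0.53 with GSK715 in HCT116 and by 0.71 in WiDr. On WiDr ONT reads it was at -0.29 (not passed), a difference between read types of -0.96 (adjusted p = 8.4e-06). The polycystin channel PKD2 fell by 1.02 with GSK025 and fell by 1.71 with GSK715 in HCT116. RYR1, the ryanodine receptor of skeletal muscle, rose by 1.31 with GSK715 in HCT116.

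Among other pumps and exchangers, 2 rose and 2 fell of 7 with GSK025, 1 rose and 2 fell of 7 with GSK715 in HCT116, and 2 rose and 4 fell of 7 in WiDr. ATP2C2, a pump of the secretory pathway that can also open ORAI1, fell by 2.10 (SE 0.036) in WiDr. It fell by 0.64 (SE 0.19) on ONT reads, a difference of 1.51 (adjusted p = 1.2e-05). ATP2A1, the pump of fast skeletal muscle, rose by 2.27 in WiDr and fell by 0.93 with GSK025 in HCT116; it is also the most abundant of the muscle markers in WiDr short reads, at a mean of 13 CPM with GSK715 and 2.7 CPM with DMSO.

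Among partners of store-operated entry, 0 rose and 1 fell of 9 with GSK025, 2 rose and 2 fell of 9 with GSK715 in HCT116, and 3 rose and 2 fell of 8 in WiDr. The channel TRPC1 fell by 1.12 with GSK025 and ORAI2 fell by 0.51 with GSK715 in HCT116. ORAI2 rose by 0.20 in WiDr short reads and was at -0.33 (not passed) on ONT reads. CRACR2B, a regulator of ORAI1, rose by 1.22 in WiDr short reads and was at -0.37 (not passed) on ONT reads, a difference of -1.54 (adjusted p = 8.8e-05).

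Of the genes that make or remove IP3, 7 rose and 5 fell of 16 with GSK025, 5 rose and 5 fell of 16 with GSK715 in HCT116, and 7 rose and 8 fell of 16 in WiDr. PLCG1, a phospholipase C of receptor tyrosine kinases, rose by 0.44 with GSK025 in HCT116 and by 1.58 with GSK715 in WiDr short reads. Its difference between read types was -2.13 (adjusted p = 0.00376). On ONT reads alone PLCG1 missed the count filter and was not tested, so no ONT response is given. ITPKA, which phosphorylates IP3, fell by 3.32 in WiDr short reads and was at -0.28 (not passed) on ONT reads, a difference of 3.08 (adjusted p = 0.0005). In HCT116 ITPKA rose by 0.32 with GSK025 and by 0.44 with GSK715.

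Of IP3 receptor partners, 5 rose and 4 fell of 14 with GSK025, 4 rose and 7 fell of 14 with GSK715 in HCT116 (22.1% and 24.2% of all genes), and 2 rose and 9 fell of 14 in WiDr (33.6% and 32.2% of all genes). The scaffold HOMER1 fell by 0.67 with GSK025, fell by 0.65 with GSK715 in HCT116 and fell by 1.97 in WiDr short reads, and was at -1.17 (not passed) on ONT reads. ITPRID2, named for its ITPR-interacting domain, fell by 0.87 with GSK025, fell by 0.75 with GSK715 in HCT116 and fell by 1.55 in WiDr short reads. It fell by 0.58 on ONT reads, a difference of 1.02 (adjusted p = 0.00044). ITPRIP, an ITPR-interacting protein, rose by 0.45 with GSK025 and by 1.07 with GSK715 in HCT116 but fell by 1.49 in WiDr short reads. The median of this list was 0.08 with GSK025, -0.23 with GSK715 in HCT116 and -0.34 in WiDr, beside -0.018, -0.052 and 0.054 over all genes.

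Of mitochondrial uptake genes, 6 rose and 1 fell of 10 with GSK025 (22.0% and 22.1% of all genes), 8 rose and 1 fell of 10 with GSK715 in HCT116 (22.1% and 24.2%), and 3 rose and 5 fell of 10 in WiDr. The uniporter pore MCU rose by 0.46 with GSK715 in HCT116 and by 0.79 in WiDr short reads, and was at 0.22 (not passed) on ONT reads, a difference of -0.52 (adjusted p = 0.0202). Its gatekeeper MICU2 fell by 0.44 with GSK025 and fell by 0.46 with GSK715 in HCT116.

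Of calmodulin, calcineurin and NFAT genes, 3 rose and 3 fell of 17 with GSK025, 5 rose and 3 fell of 17 with GSK715 in HCT116, and 6 rose and 10 fell of 17 in WiDr. PPP3CA, a catalytic subunit of calcineurin, fell by 1.72 with GSK715 in HCT116 and fell by 0.64 in WiDr short reads. It was at 0.07 (not passed) on ONT reads, a difference of 0.76 (adjusted p = 0.00059). RCAN1, a calcineurin inhibitor, fell by 1.76 in WiDr short reads and was at -0.46 (not passed) on ONT reads, a difference of 1.35 (adjusted p = 0.00999).

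Of calcium-binding proteins of the reticular lumen, 1 rose and 5 fell of 9 with GSK025, 5 rose and 1 fell of 9 with GSK715 in HCT116, and 7 rose and 2 fell of 10 in WiDr. The chaperone calreticulin (CALR), a main buffer of the stored calcium, rose by 0.84 with GSK715 in HCT116 and by 0.96 in WiDr short reads. On ONT reads it was at -0.04 (not passed), a difference of -0.96 (adjusted p = 1.5e-05). RCN1 fell by 0.51 with GSK715 in HCT116 and fell by 0.78 in WiDr short reads, and its difference between read types was 0.83 (adjusted p = 4.6e-06).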

How the data were processed

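Gene tables of 19 libraries were used: 9 of HCT116, 6 of WiDr short reads and 4 of WiDr ONT reads. The deposited short-read tables hold whole-number counts per gene, and the deposited ONT table holds estimated counts, of which 15.1% are not whole and which were rounded. The median read lengths come from a table the authors deposited. Per the labels, poly(A) RNA was read in pairs on a NovaSeq for the short reads. The submitters' processing notes name cutadapt, HISAT2, StringTie, DESeq2, minimap2, Salmon and GRCh38; versions, roles, annotation release and strand are not given in the sources used here. Columns named NC were taken as DMSO, the 1 control group of the labels. IDs that are not from Ensembl, 8.49% to 9.81% of ONT counts per library, stayed in the ONT fit and are not named.

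Counts were fitted with edgeR 4.0.16 in R 4.3.3 (filterByExpr with a minimum count of 10 and total of 15, TMM, quasi-likelihood test), and p-values were adjusted by Benjamini-Hochberg across every gene in the fit. All 9 HCT116 libraries share a fit; each interaction fits 2 tables over shared IDs. The standard error is the absolute log2 fold change divided by the root of F. The fits were checked on simulated counts. Symbols, lengths and overlaps come from GENCODE 29 and a gene name table. DESeq2 1.42.0, limma 3.58.1 and the alternatives named in the closing section were also run. No library was a copy of another in its group: the chi-square per gene between replicates was 10.7 to 27.2 for short reads and 1.51 to 1.84 for ONT. Libraries of different groups were not compared in this way. Counting error is smallest for short reads, at 59.6 to 82.4 M counts, against 1.45 to 1.67 M for ONT. The genes and lists were chosen with earlier results of these data known; genes named from a list come from the 2 per direction whose adjusted p was smallest.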

Additional observations from a re-analysis of the deposited data

Results flagged for a closer look

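In 10 results the response to GSK715 differed between lines or between read types, by an interaction test adjusted over all genes (edgeR quasi-likelihood, 3 libraries a group, 2 for ONT). Over all genes, 23.2% were called higher and 23.5% lower between the lines, and 11.2% and 8.69% between read types. The genes were chosen in these same libraries, so the p-values serve as a description. Between the lines, WiDr minus HCT116, the log2 fold changes differed by 2.89 for ITPR2 (adjusted p = 7.2e-08), 2.12 for ORAI3 (adjusted p = 5.7e-06), 2.05 for ATP2A3 (adjusted p = 1.1e-10) and 0.27 for STIM2 (adjusted p = 0.00594). They differed by -0.47 for ATP2A2 (adjusted p = 1.5e-07), -0.39 for ORAI1 (adjusted p = 0.0329) and -0.31 for ATP2B1 (adjusted p = 0.0401). Between read types in WiDr, ONT minus short reads, they differed by -1.79 for ATP2A3 (adjusted p = 0.00015), -1.39 for ORAI3 (adjusted p = 0.00244) and 0.70 for ATP2B1 (adjusted p = 0.00652). Between the lines, ORAI1 missed the threshold in 9 and ATP2B1 in 11 of 12 fits that left out a library. Between read types, ATP2B1 missed it with library totals, at 0.48. Line and table, and read type and library set, cannot be told apart.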

How the results depend on the processing

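Of 981 repeats of a gene's value under an alternative, 884 kept direction and side of the threshold, 50 lost the call, 20 gained one and 27 turned direction. With library totals, 4 turns involved a call: ATP2A2 to -0.14 with GSK715 in HCT116, STIM2 to 0.012 in WiDr short reads, and ITPR3 to 0.34 and ATP2B1 to 0.040 between the lines. Turns with no call, also with library totals, were ITPR3 to -0.0053 with GSK025, ITPR1 to -0.016, ATP2A3 to -0.018 and ORAI1 to -0.026 with GSK715 in HCT116, STIM2 to -0.027 between the inhibitors and STIM1 to -0.077 between read types. ITPR3 between the lines, at -0.017, was 0.028 with RLE size factors and in DESeq2 and 0.0068 to 0.042 with 1 library left out. With 1 library left out, ITPR2 ranged from -0.34 to 0.056 on ONT reads. ITPR1 between read types ranged from -8.73 to 1.22, the first of these fitted with its GSK715 ONT count at 0, so no bound. Counts of called genes, both directions together, stayed within 1.5 times of the values given, except on ONT reads; the splits by direction with library totals stand with each comparison. There 1 of the 9 genes was called with the replicate block and 0 to 2 with 1 library left out, against 0. Over all genes, 1397 were called on ONT reads, 251 without the count filter, 277 in DESeq2, and 464 to 1058 with 1 library left out. Leaving out ONT DMSO replicate 1 or 2 gave 464 and 591. The cause was not tested. Replicate numbers gave no sign of pairing: same-numbered libraries correlated at -0.0631 to 0.0609 in their deviations. Libraries with different numbers were not correlated for reference, so this does not show that the samples were unpaired. With the replicate block, ORAI3 passed on ONT reads (0.52), and ORAI1 (-0.38) and ATP2B1 (-0.30) missed the threshold between the lines. The fits with limma, chosen after seeing the data, changed 1 call, that of ATP2B1 between read types. At ONT depth ITPR1 could not be tested against DMSO.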
